A study of Mus musculus with 2 samples.

Results

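Keratins, the proteins of the desmosome, the scaffold proteins of adherens and tight junctions and a few regulators of epithelial genes were described here as a set of 34 listed genes, of 18193 genes named on the arrays. The genes were found by symbol, and where a gene had several probe sets the one with the highest signal, averaged over both arrays, stood for it. A gene counted as measured if it lay above the 40th percentile of an array, its floor, on at least 1 array. By that rule 27 of the 34 were measured, where 73.3% of all named genes were, and 24 of these lay above the floor on both arrays.

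The lung-recovered culture was CMT93-PM1, made from lung tumours of female C57BL/6 mice that had received CMT-93 cells by tail vein at 6 weeks of age and were examined 8 weeks later. It was set against CMT-93 itself, a mouse rectal carcinoma line kept as the parent. Both were grown in the same serum-containing medium, and 6 µg of total RNA from each was hybridised to 1 Affymetrix array. CMT93-PM1 is a primary tumour culture, so cells of the host lung could be part of it, and the sources used here do not say how many mice or tumours it came from.

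Keratins are the intermediate filaments of epithelial cells, and each filament is built from a type I and a type II protein in equal parts. Desmosomes anchor these filaments at the cell border through desmosomal cadherins, plakoglobin, plakophilins and desmoplakin. Adherens junctions tie classical cadherins to actin through the catenins, and tight junctions seal the border through membrane proteins held by ZO scaffolds. Simple epithelia such as that of the colon and rectum are known for Krt8, Krt18, Krt19 and Krt20, and stratified epithelia for Krt5, Krt14, Krt4 and Krt13.

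Of the 27 measured genes 2 were at least 2-fold apart between the lines, where 6.97% of all measured genes were. Dsg2, a desmosomal cadherin, was 4.53-fold lower, and Grhl1, a Grainyhead transcription factor, was 2.28-fold higher. Thus 1 of 27 measured genes was at least 2-fold higher, where 4.42% of all 13332 measured genes were, and 1 of 27 was at least 2-fold lower, where 2.55% were. These counts are near the background. The median log2 ratio, lung-recovered minus parental, was 0.10 over the 27 genes and 0 over all measured genes, with 17 of the 27 above 0 and 10 below. Above 0 lay 49.2% of all measured genes, and 48.7% lay below.

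With 1 array per culture no difference here has a replicate check or a p-value. The only spread in the data is that between probe sets of 1 gene on the same arrays. Its SD of the log2 ratio had a median of 0.18 and a 90th percentile of 0.52 over 6172 genes with several measured probe sets. Floors were 4.59 log2 on the lung-recovered array and 4.69 on the parental array. In RNA from whole cultures, fewer cells of a type and less RNA per cell cannot be told apart.

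**Figure D1:**
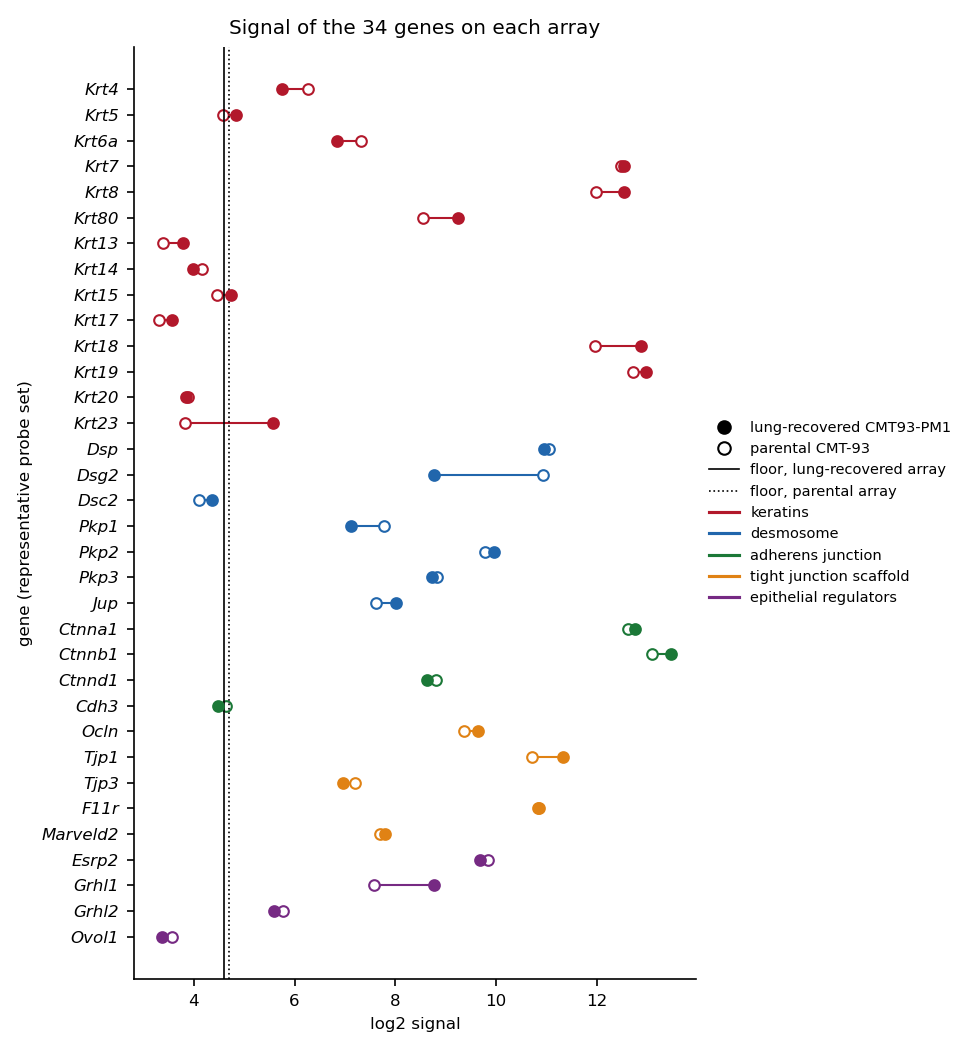
Log2 signal (x axis) of each listed gene (y axis) by its representative probe set, with filled points for lung-recovered CMT93-PM1 and open points for parental CMT-93, 1 array each. Lines mark the floors at 4.59 and 4.69 log2, and the widest gaps are those of Dsg2, Krt23 and Grhl1.

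The simple-epithelial keratins were all measured on both arrays except Krt20, and Krt8 and Krt18 were both higher in the lung-recovered line. Krt18, the type I partner of Krt8, read 12.88 log2 in the lung-recovered line, against 11.96 in the parental line. That is a ratio of 0.92, or 1.89-fold higher, just inside the 2-fold limit. A ratio that high or higher was seen in 5.18% of all measured genes, and Krt18 passed 2-fold, at 1.02, when the arrays were scaled to equal medians.

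Krt8, the type II partner, read 12.54 log2 in the lung-recovered line and 11.98 in the parental line, 1.47-fold higher. Its other probe sets gave ratios of 0.51 and 0.56, so the 3 probe sets differed by little. Any processed copies of Krt8 and Krt18 in the genome could share signal with them, which was not tested here. Krt19, a type I keratin of simple and ductal epithelia, read 12.98 in the lung-recovered line and 12.72 in the parental line, a ratio of 0.26. Krt7, a type II keratin of ductal and glandular epithelia, read 12.54 in the lung-recovered line and 12.48 in the parental line, a ratio of 0.06. The ratio of Krt7 was thus smaller than the median SD between probe sets of a gene, 0.18. That of Krt19 was larger than this median but below the 90th percentile, 0.52. A spread within the same arrays is no replicate check.

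Krt20, a keratin of differentiated intestinal cells, was at the floor in both lines. It read 3.84 log2 in the lung-recovered line and 3.89 in the parental line and has no fold here. Krt80, a type II keratin, read 9.25 log2 in the lung-recovered line, against 8.55 in the parental line, and was 1.62-fold higher by its only probe set. Krt23, a type I keratin, was above the floor on the lung-recovered array only. It read 5.58 there and 3.83 on the parental array, at least 1.85-fold higher against the parental floor. Without a floor its log2 ratio was 1.75, so its place beyond or inside 2-fold rests on a signal too dim to be measured in the parent.

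Of the keratins of stratified epithelia, Krt6a and Krt4 were above the floor in both lines. Krt6a, a keratin of stressed and wounded epithelium, read 6.85 log2 in the lung-recovered line and 7.31 in the parental line, a ratio of -0.46 (-0.92 by its other measured probe set). Mouse Krt6a has a close paralog in Krt6b, so its assignment is uncertain. By its own probe set Krt6b was at the floor in both lines, at 3.48 in the lung-recovered line and 3.61 in the parental line. Whether the Krt6a probe sets also detect Krt6b was not tested. Krt4, a type II keratin of the oesophagus and other internal stratified epithelia, read 5.76 in the lung-recovered line and 6.27 in the parental line, a ratio of -0.51, and its other probe set gave -0.25. Both genes were lower by every measured probe set, by less than 2-fold.

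The basal keratins were at or close to the floor. Krt5 read 4.84 log2 in the lung-recovered line and 4.57 in the parental line, at least 1.11-fold higher. Krt15 read 4.73 in the lung-recovered line and 4.45 in the parental line, at least 1.03-fold higher. Both bounds are smaller than the spread between probe sets. Krt14, its relative Krt17 and the mucosal keratin Krt13 were not measured in either line, at 3.99, 3.56 and 3.78 log2 in the lung-recovered line and 4.16, 3.31 and 3.39 in the parental line. A further probe set listed for both Krt14 and Krt17 was not named or used.

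Of the 14 keratins, 10 were measured, and 0 of these were 2-fold apart in either direction. At 1.5-fold, 3 were higher and 0 lower, where 11.5% and 6.95% of all measured genes were. These were Krt18, Krt80 and Krt23. The keratin median was 0.21, and it stayed between 0.21 and 0.31 under every scaling, floor and probe set choice tried. The 4 measured type I keratins ranged from 0.04 to 0.92, and the 6 of type II from -0.51 to 0.70.

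Krt8 and Krt18 are neighbours on chromosome 15 that point away from each other, with only the noncoding genes Gm36026 and Gm41404 between them in the RefSeq annotation of GRCm38.p6. Their promoters are shown because the partners were higher together. Each sequence is the 250 bases before the annotated start, 5′ to 3′ on the gene's strand, from RefSeq. Capitals would mark any match to the motifs searched on both strands, and neither window has one. Krt8 lies on the minus strand at chr15:102004343-102004592 and Krt18 on the plus strand at chr15:102027966-102028215.
Krt8: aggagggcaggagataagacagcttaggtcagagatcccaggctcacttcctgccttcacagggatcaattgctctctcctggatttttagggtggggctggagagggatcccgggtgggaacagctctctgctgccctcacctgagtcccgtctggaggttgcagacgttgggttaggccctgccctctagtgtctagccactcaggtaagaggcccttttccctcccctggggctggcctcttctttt
Krt18: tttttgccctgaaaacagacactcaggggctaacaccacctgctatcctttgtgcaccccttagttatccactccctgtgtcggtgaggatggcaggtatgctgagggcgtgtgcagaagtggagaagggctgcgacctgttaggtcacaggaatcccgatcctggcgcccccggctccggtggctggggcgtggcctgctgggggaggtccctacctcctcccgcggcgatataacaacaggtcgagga

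The motifs were AACNNGTT, which Grainyhead factors such as Grhl1 bind, TGANTCA of AP-1, the GC box GGGCGG and the TATA box TATAAA. No printed match overlaps another. Of the 34 genes, 18 had promoter windows in the table, 25 windows in all, and those of 1 gene can overlap. Dsg2 was not among the 18, so its promoter was not searched. AACNNGTT was found in 0 of the 25 windows, against 3.64% of all 32851 windows. GGGCGG was found in 12 (48%, against 32.7% of all), TATAAA in 5 (20%, against 12.4%) and TGANTCA in 3 (12%, against 6.75%). The absence of a match says only that these letters are not in the window.

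**Figure D2:**
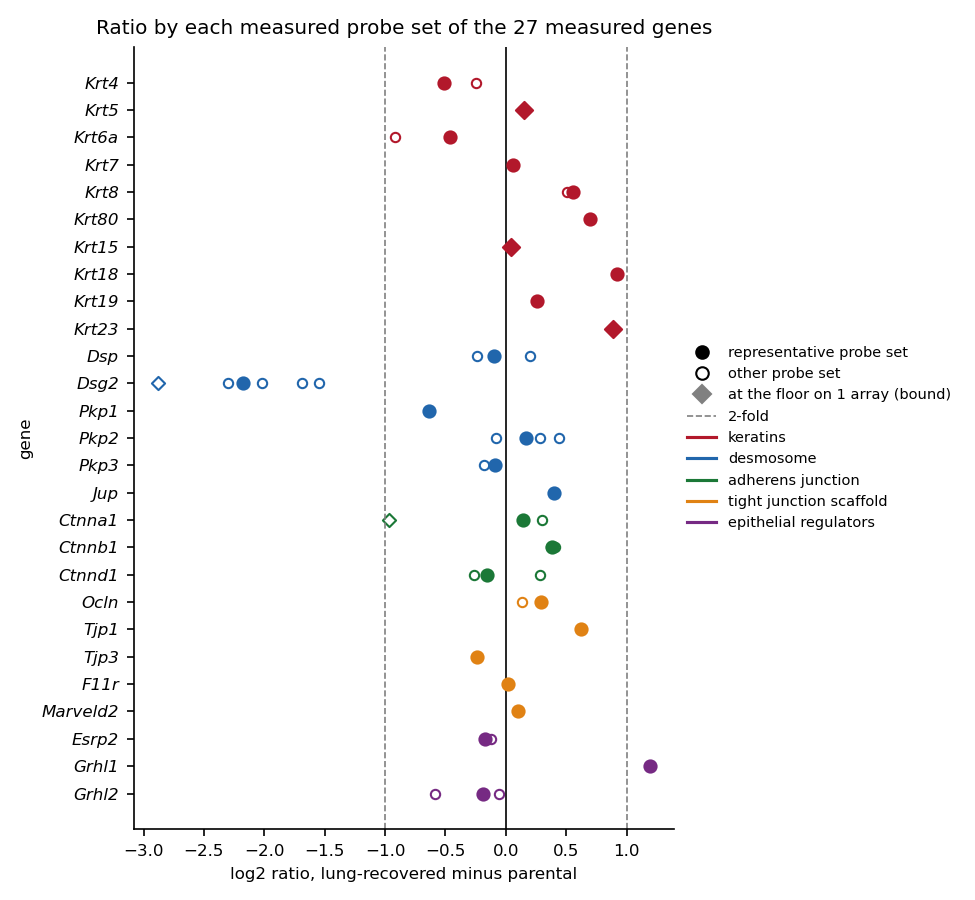
Log2 ratio, lung-recovered minus parental (x axis), by every measured probe set of the 27 measured genes (y axis). Filled points are representative probe sets, open points others, diamonds bounds, and dashed lines 2-fold. All 6 probe sets of Dsg2 lie left of -1, from -2.88 to -1.55.

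Desmosomes showed the widest range, owing to Dsg2. Dsg2, desmoglein 2, is the desmoglein of simple epithelia and binds cadherins of the neighbouring cell. Its representative probe set (1439476_at) read 8.76 log2 in the lung-recovered line, against 10.94 in the parental line, a ratio of -2.18. Ratios that low or lower were found in 0.510% of all measured genes. A second bright probe set (1449740_s_at) read 8.36 in the lung-recovered line and 10.66 in the parental line.

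The remaining probe sets of Dsg2 were dimmer and gave the same direction. They read 6.42 in the lung-recovered and 8.44 in the parental line by 1425619_s_at, 6.08 in the lung-recovered and 7.63 in the parental line by 1460380_at, and 5.33 in the lung-recovered and 7.02 in the parental line by 1449741_at. The last (1426153_a_at) read 4.58, at the floor, in the lung-recovered line and 7.47 in the parental line, at least 7.36-fold lower. Dsg2 remained above the floor in the lung-recovered line by 5 of 6 probe sets, and under the alternative settings its ratio ran from -2.25 to -2.08.

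The other desmosomal genes were not 2-fold apart. Pkp1, plakophilin 1, which is known from stratified epithelia, read 7.13 log2 in the lung-recovered line, against 7.77 in the parental line, and was 1.56-fold lower by its only probe set. Jup, plakoglobin, which links desmosomal cadherins to desmoplakin, read 8.02 in the lung-recovered line and 7.62 in the parental line, 1.32-fold higher. The 2 genes thus differed in opposite directions.

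Dsp, desmoplakin, which binds the keratin filaments, read 10.96 log2 in the lung-recovered line and 11.06 in the parental line, with other probe sets at -0.24 and 0.20. Pkp2, the plakophilin of simple epithelia and heart, read 9.96 in the lung-recovered line and 9.79 in the parental line, with other probe sets from -0.08 to 0.44. Pkp3, a plakophilin of most epithelia, read 8.74 in the lung-recovered line and 8.83 in the parental line. Probe sets of Dsp and Pkp2 disagreed in sign, and Dsp (0) and Pkp3 (0.01) were not below 0 with the arrays scaled to equal medians, so no direction is given for these 3.

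Dsc2, desmocollin 2, the usual adhesive partner of Dsg2, was at the floor in both lines, at 4.37 log2 in the lung-recovered line and 4.11 in the parental line. Of the 7 desmosomal genes 6 were measured, with 1 at least 2-fold lower, 0 higher and a median of -0.10. That median was 0.01 after scaling to equal medians.

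Genes of the adherens junction differed little. Ctnnb1, beta-catenin, which binds the cadherin tail and also carries Wnt signals, read 13.47 log2 in the lung-recovered line, against 13.09 in the parental line. Its ratio of 0.38 was matched by its other probe sets, at 0.37 and 0.41, so that it was 1.30-fold higher by the representative one with little spread. Ctnna1, alpha-catenin, the link to actin, read 12.76 in the lung-recovered line and 12.62 in the parental line, a ratio of 0.14.

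Probe sets of Ctnna1 did not all give that direction. One (1437807_x_at) gave 0.30, and a dim one (1436631_at) read 4.10, at the floor, in the lung-recovered line and 5.56 in the parental line, at least 1.96-fold lower. Ctnnd1, p120-catenin, which keeps cadherins at the membrane, read 8.64 in the lung-recovered line and 8.80 in the parental line, with other probe sets at 0.28 and -0.26. Its direction therefore depends on the probe set. Cdh3, P-cadherin, was not measured, at 4.47 in the lung-recovered line and 4.64 in the parental line.

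Among the tight junction scaffold genes Tjp1 had the largest ratio. Tjp1, the scaffold ZO-1, read 11.34 log2 in the lung-recovered line, against 10.72 in the parental line, 1.54-fold higher by its only probe set. Ocln, occludin, a membrane protein of the tight junction, read 9.65 in the lung-recovered line and 9.36 in the parental line, a ratio of 0.29 and of 0.13 by its other probe set. Both genes were above 0 under every setting that gave them a value.

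The remaining tight junction genes were closer to 0. Tjp3, the scaffold ZO-3, read 6.96 log2 in the lung-recovered line and 7.20 in the parental line, a ratio of -0.24. Marveld2, tricellulin, which seals the corners where cells meet, read 7.80 in the lung-recovered line and 7.70 in the parental line, a ratio of 0.10. F11r, the adhesion molecule JAM-A, read 10.86 in the lung-recovered line and 10.84 in the parental line. The ratios of Marveld2 and F11r are within the spread between probe sets, and that of F11r was -0.03 after quantile normalization. All 5 genes were measured, 0 of them 2-fold apart, with a median of 0.10.

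The regulators split, with Grhl1 past 2-fold upward and the rest within 2-fold or not measured. Grhl1 read 8.77 log2 in the lung-recovered line, against 7.58 in the parental line, a ratio of 1.19 by its only probe set, which 2.93% of all measured genes reached. Its ratio ran from 1.10 to 1.29 under the alternative settings. Grhl1 is known to bind the promoter of a Dsg1 gene in skin, and binding to Dsg2 was not tested here. Dsg1a and Dsg1b, named for that reason, were not measured. They read 2.49 and 2.22 log2 in the lung-recovered line and 2.81 and 2.25 in the parental line. Its relative Grhl2, a factor that maintains junction genes in simple epithelia, read 5.59 in the lung-recovered line and 5.78 in the parental line, with other measured probe sets at -0.06 and -0.59.

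Esrp2, a splicing factor that makes epithelial isoforms, read 9.68 log2 in the lung-recovered line and 9.85 in the parental line, a ratio of -0.17 and of -0.12 by its other probe set. Ovol1, a zinc finger repressor of mesenchymal genes, was at the floor in both lines, at 3.36 in the lung-recovered line and 3.57 in the parental line. The promoter of Grhl1 is shown as that of the 1 listed gene past 2-fold upward. It is the first of 2 starts in the table, on the plus strand at chr12:24572037-24572286 of GRCm38.p6, and capitals mark 2 GC boxes, found as CCGCCC on the printed strand. The window of the other start held no match to any of the motifs. Which start the array signal comes from is not known.
Grhl1: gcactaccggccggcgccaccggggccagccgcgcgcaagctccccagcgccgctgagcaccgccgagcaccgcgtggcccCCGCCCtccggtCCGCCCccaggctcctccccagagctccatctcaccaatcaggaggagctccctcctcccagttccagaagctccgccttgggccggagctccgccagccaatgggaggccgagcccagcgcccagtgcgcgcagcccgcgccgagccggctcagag

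**Figure D3:**
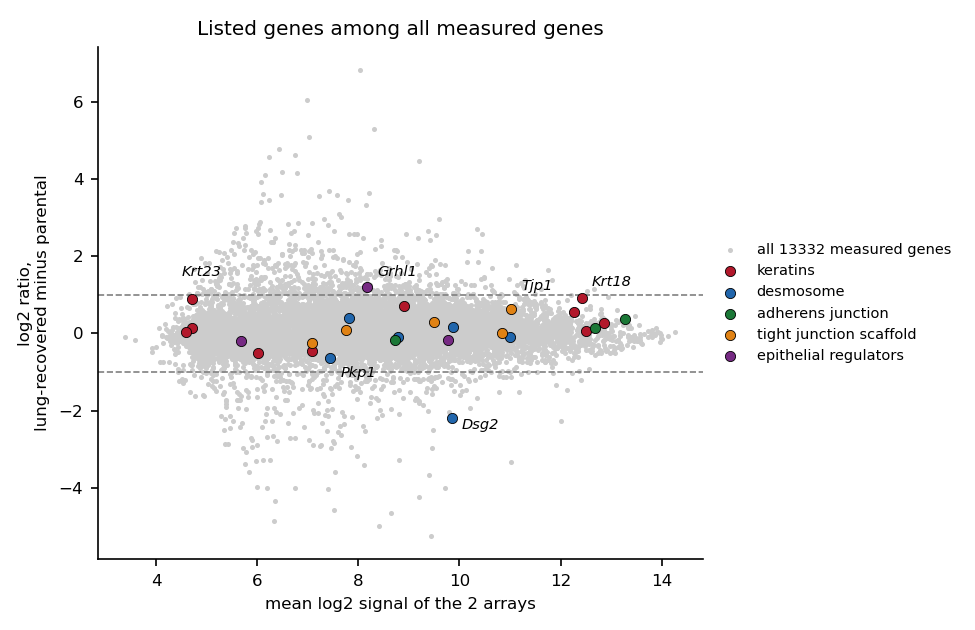
Log2 ratio, lung-recovered minus parental (y axis), against the mean log2 signal of the 2 arrays (x axis) for all 13332 measured genes in grey and the 27 listed ones in colour by role. Dashed lines mark 2-fold, and of the coloured points Dsg2 lies below them, at -2.18, and Grhl1 above, at 1.19.

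Probe sets of 1 gene were compared in the 13 listed genes that had several measured ones. In 9 of the 13 all had the same sign, and in 4 (Dsp, Pkp2, Ctnna1 and Ctnnd1) they did not. The share over all genes was not worked out, so 9 of 13 is not read as high or low. The median SD between them was 0.22, against 0.18 over all genes with several. The largest SD was that of Ctnna1, at 0.69, and that of Dsg2 was 0.48.

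Further genes of the same structures were read from lists of 103 symbols, of which 92 were on the array and 63 measured. Of these 63, 3 were at least 2-fold higher and 1 lower, where 4.42% and 2.55% of all measured genes were. At 1.5-fold, 16 of the 63 were higher and 4 lower, where 11.5% and 6.95% of all measured genes were. The lists differed in their medians. Of 13 other adherens junction genes, 2 were 2-fold higher and 0 lower, 10 were above 0, where 49.2% of all measured genes were, and the median was 0.61, against 0 over all measured genes. The 20 other tight junction and polarity genes had 1 higher and 0 lower past 2-fold, 17 above 0 and a median of 0.43, against the same background. These medians stayed between 0.51 and 0.71 and between 0.31 and 0.53 under every setting tried.

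The genes past 2-fold in these lists were Lima1, Ctnnal1, Ildr1 and Krt10. Lima1, an actin-binding protein that associates with the cadherin-catenin complex, read 9.30 log2 in the lung-recovered line, against 7.92 in the parental line, 2.60-fold higher, and its other measured probe sets gave ratios from 0.86 to 1.66. Ctnnal1, a relative of alpha-catenin, read 7.75 in the lung-recovered line and 6.51 in the parental line, 2.36-fold higher (0.95 by its other probe set). Both had the same direction by every measured probe set.

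Ildr1, an angulin of tricellular junctions, read 6.86 log2 in the lung-recovered line and 5.43 in the parental line, 2.69-fold higher. Krt10, the keratin of differentiating epidermis, was at the floor in the lung-recovered line at 3.71 and read 6.20 in the parental line, at least 3.05-fold lower. Each was read by 1 probe set. Krt10 was the only gene past 2-fold among 16 other measured keratins, whose median was -0.14. The largest differences among other keratins and junction genes were thus in junction genes upward and in 1 keratin downward.

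Landmark genes of epithelial identity, and Vim as a mesenchymal one, were all bright in both lines. Cdh1, E-cadherin, read 12.52 log2 in the lung-recovered line and 12.66 in the parental line. Epcam, an epithelial adhesion molecule, read 11.20 in the lung-recovered line and 10.36 in the parental line, a ratio of 0.84 (0.38 by its other probe set). Esrp1, the relative of Esrp2, read 10.16 in the lung-recovered line and 10.04 in the parental line. Vim, vimentin, the intermediate filament of mesenchymal cells, read 12.72 in the lung-recovered line and 12.57 in the parental line. The ratios of Cdh1 (-0.14), Esrp1 (0.12) and Vim (0.15) were all within the spread between probe sets.

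Other desmosomal and plakin genes had 7 measured members, 0 past 2-fold and a median of 0.17. Chosen after their values were seen, Perp, a membrane protein of desmosomes, read 11.79 log2 in the lung-recovered line and 10.86 in the parental line, a ratio of 0.93, and Eppk1, the keratin-binding epiplakin, read 6.98 in the lung-recovered line and 7.96 in the parental line, a ratio of -0.98. The 7 other measured epithelial regulators had 0 past 2-fold and a median of -0.03.

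**Figure D4:**
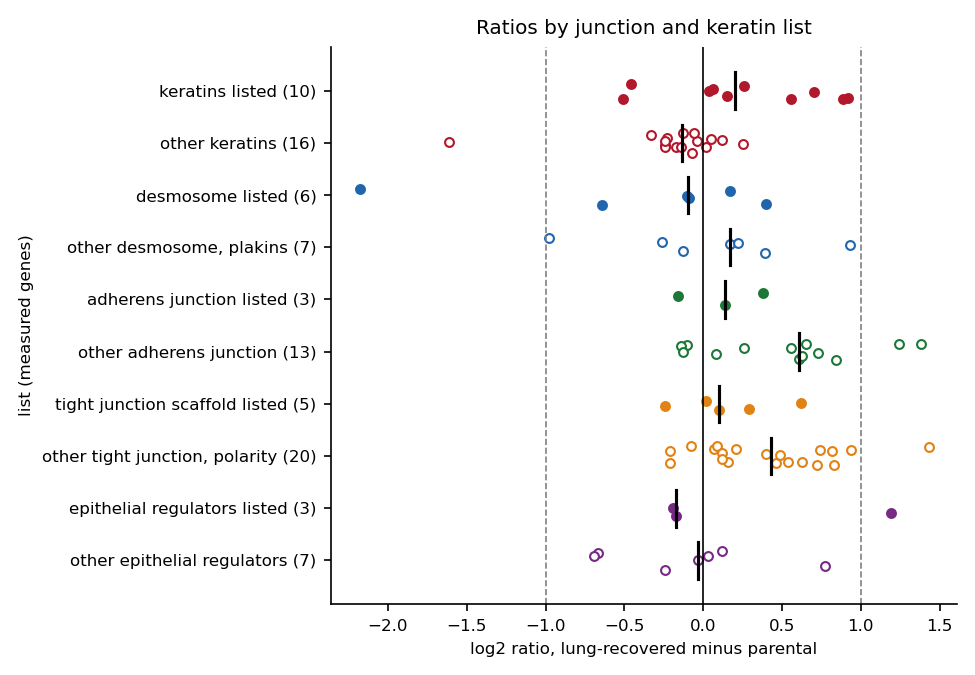
Log2 ratio, lung-recovered minus parental (x axis), of each measured gene in the listed groups (filled) and in the further lists of the same structures (open), with list medians as black bars and the number of measured genes in brackets. The medians of the other adherens junction and tight junction genes, at 0.61 and 0.43, lie right of those of the listed groups.

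Markers of cells the lung could contribute were read beside these values, as sums of linear signal over measured markers. Of 10 fibroblast and mural markers 4 were measured and 0 were 2-fold apart, with sums of 158 in the lung-recovered and 178 in the parental line. Acta2 read 5.64 log2 in the lung-recovered and 5.83 in the parental line, and Col1a1 was at the floor in both. Of 9 endothelial markers 4 were measured, with sums of 800.2 in the lung-recovered and 562 in the parental line, Cdh5 (at least 24.4-fold) higher and Tek (at least 15.8-fold) lower, and Pecam1 at the floor in both. A dimmer Cdh5 probe set gave a smaller bound, 1.78-fold. Of 8 leukocyte markers on the array 5 were measured, with sums of 457 in the lung-recovered and 265 in the parental line, Cd68 (3.53-fold) and Csf1r (2.17-fold) higher, and Ptprc at the floor in both. The other probe sets of Csf1r gave ratios of 0.78 and 0.02, within 2-fold. Of 10 lung epithelial markers 6 were measured, 0 of them 2-fold apart, with sums of 246 in the lung-recovered and 330.4 in the parental line. Sftpb read 6.32 log2 in the lung-recovered and 6.70 in the parental line, and Nkx2-1 was at the floor in both. The part of such cells in the keratin and junction ratios was not tested.

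The neighbours of Dsg2, Grhl1 and Krt18 on their chromosomes were compared with them, 5 measured genes on either side in the map order of GRCm38.p6. Around Dsg2 on chromosome 18 the 10 neighbours had ratios from -0.48 to 0.25 with a median of -0.17. They include Cdh2, N-cadherin, at -0.40 and close to the floor, with 4.79 log2 in the lung-recovered and 5.19 in the parental line. None of the 10 was 2-fold apart, whereas Dsg2 was at -2.18.

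Around Grhl1 on chromosome 12 the ratios ran from -0.24 to 0.80, with a median of 0.31. The immediate neighbours Taf1b (0.80) and Klf11 (0.73) were the nearest to it in size. Around Krt18 on chromosome 15 they ran from -0.51 to 0.73 with a median of -0.03. There Krt8 (0.56) and the translation factor gene Eif4b (0.73) on either side of Krt18 were higher. Beyond Krt8 the keratins Krt78 (-0.24) and Krt4 (-0.51) were below 0. The ratios of Krt76 (-0.07) and Krt77 (-0.13) were within the spread between probe sets.

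**Figure D5:**
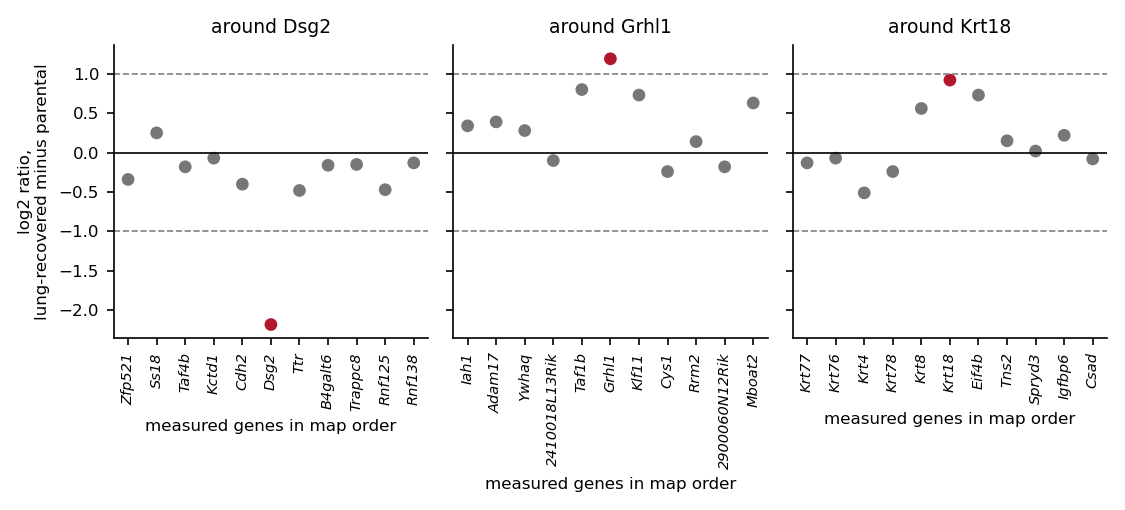
Log2 ratio, lung-recovered minus parental (y axis), of the 5 measured genes on either side of Dsg2, Grhl1 and Krt18 in map order (x axis, equal steps and not distance), with the central gene in red and dashed lines at 2-fold. Dsg2 stands far from its neighbours at -2.18. In all panels the genes next to the central gene share its sign, Cdh2 (-0.40) and Ttr (-0.48) next to Dsg2 among them.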

How the data were processed

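The authors deposited 1 log2 signal per probe set and array, for 45037 probe sets, with 2 decimals. Per the labels' protocols biotin-labelled cRNA was hybridised to Affymetrix arrays. MAS5 is named, without a role, per the submitters' processing notes, and any scaling between arrays is not stated there. That the logarithm has base 2 was taken from the range of the values, 1.89 to 14.28. They were used as deposited, with medians of 5.26 (lung-recovered) and 5.36 log2 (parental).

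Probe sets with 1 symbol (34945 of 35877 listed) were named by the platform annotation, with symbols updated by Entrez identifier. Signals under an array's 40th percentile were set to it, and a fold against a floored signal is written "at least". With 1 array a group no test was run, and genes were counted at 2-fold. The number of arrays limits the precision. Calculations used Python 3.11.15 and pandas 2.3.3 and were tested on simulated arrays. The genes, the further lists and the alternatives were chosen with earlier results of these data known. Named are all 34 listed genes, genes of the further lists past 2-fold and the landmarks Cdh1, Epcam, Esrp1 and Vim, and others where stated. From each marker list the gene with the highest mean signal and those past 2-fold are also named, and Col1a1, Pecam1, Ptprc and Nkx2-1 were added, after their values were seen, as defining markers at the floor. Map neighbours and promoter motifs were added after the values were seen. Alternatives were 3 scalings, other floors, other probe set rules and other fold limits.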

Additional observations from a re-analysis of the deposited data

How the results depend on the processing

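The count of listed genes at least 2-fold higher was 1 as reported and 2 with the arrays scaled to equal medians (Krt18 joined), with a lower floor (20th percentile) and with no floor (Krt23 joined in both). It was 5 at a limit of 1.5-fold, which 11.5% of all measured genes reached, and 0 at 3-fold. Of all measured genes, 589 of 13332 were at least 2-fold higher as reported and 720 with equal medians. With the lower floor 626 of 16206 were, and there all 34 listed genes were measured. With no floor 625 of 13332 were. The count of listed genes at least 2-fold lower was 1 under these settings except at 1.5-fold, where it was 2. At that limit 6.95% of all measured genes were lower. At 2-fold 340 of all measured genes were lower as reported, 284 with equal medians, 377 with the lower floor and 371 with no floor. Both counts of listed genes were 1 after quantile normalization, after lowess and with a higher floor (60th percentile). They were also 1 by the median over probe sets and without probe sets whose names carry _s, _x or _a. The same held for genes above the floor on both arrays only, a setting chosen after seeing the data. In these last settings 439 to 555 of all measured genes were higher and 257 to 358 lower, of 9910 to 13337. Group medians moved by less than the median SD between probe sets of a gene, 0.18. Those of the desmosome genes (from -0.24 to 0.01) and the adherens junction genes (from -0.01 to 0.24) crossed 0. Scaling to equal medians moved the median of all measured genes by 0.10. Of 207 ratios of single listed genes under these settings, 198 moved by less than 0.18 and 9 by more. No paired analysis was possible because each group has 1 array. Dim signals near the floors limit Krt23, Krt5, Krt15 and the genes at the floor on both arrays.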

Other observations

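Intermediate filament genes other than keratins were compared as well. Of 13 listed, 7 were measured and 0 were 2-fold apart, with a median log2 ratio of -0.03 by representative probe sets. Chosen after their values were seen, Nes, the nestin gene of progenitor and other cells, read 8.33 log2 in the lung-recovered line, against 7.72 in the parental line, a ratio of 0.61 by its representative probe set. Its other probe sets gave 1.02 and 1.94, past 2-fold in the same direction. Des, the desmin gene of muscle, read 6.23 in the lung-recovered line and 6.78 in the parental line, a ratio of -0.55.

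Krt23 lies in the type I keratin locus on chromosome 11. Among 10 measured genes around it, 2 were at least 2-fold higher, where 4.42% of all measured genes were, and 1 was lower, where 2.55% were. These 10 genes are too few to read a share from. The keratin-associated protein gene Krtap1-5 read 9.82 log2 in the lung-recovered line and 6.49 in the parental line. Igfbp4, which encodes an IGF-binding protein, read 9.09 in the lung-recovered line and 6.98 in the parental line, and its other probe sets gave ratios from 0.75 to a bound of 3.90. Krt10 was lower, while the hair keratin genes Krt31 (0.25), Krt33b (-0.23) and Krt34 (-0.06) were within 2-fold.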
